A study of Mus musculus with 8 samples.

Results

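Solute carriers are membrane proteins that move amino acids, sugars, ions, metals, nucleotides and vitamins across the plasma membrane and the membranes of organelles. Their genes carry the symbol Slc followed by a family number, and the number largely follows sequence relatedness and substrate. In cortex they are best known for clearing glutamate and GABA from the synapse, for loading transmitters into vesicles, for passing glutamine from astrocytes to neurons, and for carrying glucose and amino acids across the blood-brain barrier. The members described here are the protein-coding genes with such a symbol among the 2372 genes of the authors' deposited table, after each row was matched to GENCODE M21 (GRCm38) by position and strand. They number 36, of 371 protein-coding Slc genes in that annotation.

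The samples are bulk RNA of medial prefrontal cortex (mPFC), 1 library from each of 8 adult males of C57Bl/6J background, all naive to treatment and all homozygous for the floxed Gpr158 allele. In 4 of them (CaKO, genotype CamK2A-Cre;Gpr158flox/flox) Cre recombinase under the CamK2A promoter deletes Gpr158, an orphan receptor, from forebrain excitatory neurons, and the other 4 (genotype Gpr158flox/flox) are littermates used as controls. The series was set up to look for molecular changes behind a shortage of glutamate vesicles that follows this deletion. The tissue was not sorted, so the values mix targeted neurons with glia, vessels and other neurons, and in such bulk tissue fewer cells of a type and less RNA per cell cannot be told apart.

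The table gives read counts divided by 1 factor per library (normalised counts) for the CaKO libraries, and the authors' fold change between genotypes with its p (the log2 fold change of CaKO over control is called the log2 ratio here, and its p adjusted by the Benjamini-Hochberg method the BH-adjusted p). Values of the control libraries were not analysed here, so whether the 2 groups overlap cannot be stated for any gene. Where a control level is mentioned it is the CaKO mean divided by the deposited fold change, and it has no error. The table is limited to genes with an unadjusted p below 0.05, so a member had to differ to be in it. A further 336 Slc genes had no value inside the multiple-testing adjustment. They either missed that limit or were left out of the adjustment, and Slc10a3, which is in the table, is counted among them. Reads over the table's genes ranged from 2832931 to 3183638 per CaKO library, and since these genes are only part of a library the full depth is unknown. Gpr158 itself overlapped 0 rows, and the genotype labels could not be checked against it. Of 7 pyramidal neuron markers 4 were listed, all lower, and 1 of them (Nrgn) had a BH-adjusted p below 0.05. Over all genes 15.8% were listed, 8.68% as lower, and 3.24% had a BH-adjusted p below 0.05. The 7 inhibitory neuron and 5 choroid plexus markers had no value.

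The 5 solute carrier genes that passed the authors' adjusted threshold move citrate, nucleotides, nucleosides, an osmolyte and cationic amino acids. By the authors' deposited table, a total of 2 Slc genes rose (Slc5a3 and Slc7a3) and 3 fell (Slc25a1, Slc25a23 and Slc29a3) at an adjusted p below 0.05. Over all 12938 genes in the adjustment 1.27% rose and 1.97% fell, 3.24% in both directions together. The 5 called genes are 1.35% of the 371 annotated Slc genes. How many of the 371 were expressed highly enough to enter the adjustment is not known here, so this share is a lower limit and is not read against the 3.24%. At an unadjusted p below 0.05 the authors' deposited table listed 18 Slc genes as higher and 17 as lower, against 7.14% and 8.68% of all genes (15.8% together). Of these listed Slc genes 14.3% were called, beside 20.5% of all listed genes. Another gene, Slc10a3, is in the table with an adjusted p listed as 1, which was taken to mean that it was left out of the adjustment.

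The direction was nearly even. Of the 35 listed genes 48.6% were lower, compared with 54.9% of all 2047 listed genes. Their median log2 ratio in the authors' deposited table was 0.16, against -0.22 over all listed genes. With 18 genes on one side of 0 and 17 on the other, that median is the smallest increase (Slc25a3) and not a typical change. Split by direction, the medians in the authors' deposited table were 0.29 for the higher and -0.35 for the lower Slc genes, beside 0.31 and -0.37 for all listed genes. Both sets hold only genes under the same p limit, which itself bounds the size of change, so these medians are a description.

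Substrate classes were set by family number alone, so a member's own substrate can differ from its class. For example, Slc5a3 and Slc5a6 of the sugar class carry myo-inositol and vitamins, and Slc29a4 of the nucleoside class carries monoamines. Listed genes came from 16 of the 49 annotated families, while 15.8% of all genes were listed. Mitochondrial carriers of family 25 gave the most, 9 of 47, with 7 higher and 2 lower. Amino acid and transmitter carriers of the cell membrane gave 7 of 64 (3 higher, 4 lower), and carriers of nucleosides and nucleotide sugars 5 of 34 (2 higher, 3 lower). Carriers of organic ions, vitamins, lipids and other substrates gave 5 of 68 (1 higher, 4 lower), sugar carriers 3 of 34 (2 higher, 1 lower), inorganic ion carriers 3 of 62 (1 higher, 2 lower) and metal carriers 3 of 29 (2 higher, 1 lower). No member was listed among the 14 genes of the vesicular families (17, 18 and 32) or the 19 of the carboxylate families (13 and 16). The number of genes tested in each class is not known, so these counts are not compared between classes.

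The transporters that do most of the transmitter and fuel traffic in cortex were nearly all without a value. Of 20 such genes picked for their known roles, 19 were not in the authors' deposited table. Among them were the vesicular glutamate transporters Slc17a7, Slc17a6 and Slc17a8 and the vesicular GABA transporter Slc32a1. The glutamate uptake carriers Slc1a1, Slc1a2 and Slc1a3, the GABA uptake carrier Slc6a11 and the neuronal glutamine carriers Slc38a1 and Slc38a2 had no value either. The same held for the neuronal glucose carrier Slc2a3, the lactate carriers Slc16a1 and Slc16a7, the chloride carriers Slc12a2 and Slc12a5, Slc4a4, Slc25a4 and the vesicular zinc carrier Slc30a3. Absence from the table is not evidence that these genes did not differ. The exception was Slc2a1, described with the sugar carriers.

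**Figure D1:**
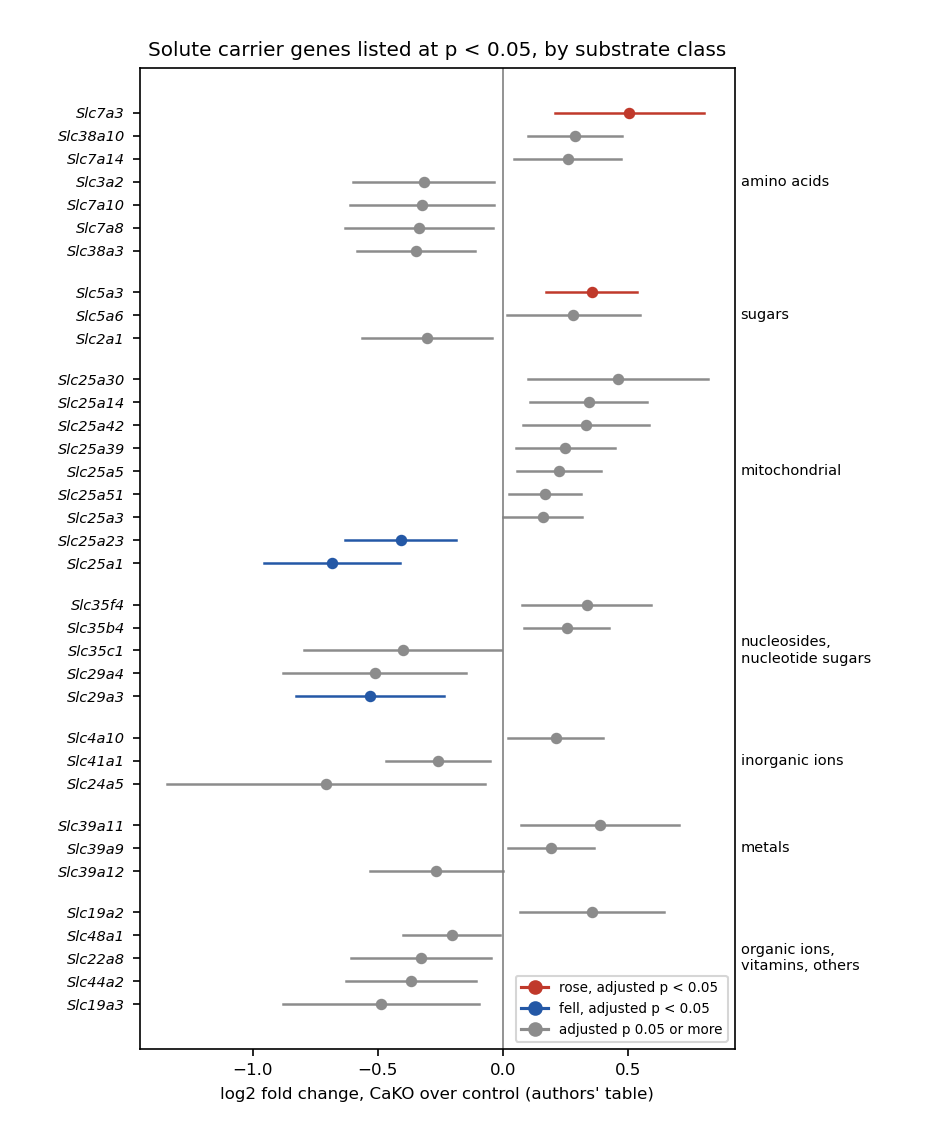
Log2 ratio (CaKO over control) of the 35 listed solute carrier genes from the authors' deposited table, grouped by substrate class. Lines are 95% intervals derived from the deposited p under a normal test statistic. All of them exclude 0 by construction, since only genes at an unadjusted p below 0.05 are listed. Colour marks the 2 genes that rose and the 3 that fell. In the mitochondrial class 7 genes lie above 0 and the 2 called ones below it.

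RefSeq promoters (GRCm38.p6) were at hand for 4 of the 5 called genes, and are shown because these are the genes on which the comparison rests and the sequences let the upstream regions of genes that fell and rose be read side by side. Each runs 5′ to 3′ on the gene's strand from 250 bases before the annotated start to 50 after it. Capitals mark matches on either strand to a CCAAT box (CCAAT), a GC box (GGGCGG) or an E-box (CACGTG). The Slc25a1 promoter lies at chr16:17928170-17928469 (minus strand), that of Slc25a23 at chr17:57059814-57060113 (minus strand), that of Slc29a3 at chr10:60752733-60753032 (minus strand) and that of Slc5a3 at chr16:92058072-92058371 (plus strand).
Slc25a1 (fell): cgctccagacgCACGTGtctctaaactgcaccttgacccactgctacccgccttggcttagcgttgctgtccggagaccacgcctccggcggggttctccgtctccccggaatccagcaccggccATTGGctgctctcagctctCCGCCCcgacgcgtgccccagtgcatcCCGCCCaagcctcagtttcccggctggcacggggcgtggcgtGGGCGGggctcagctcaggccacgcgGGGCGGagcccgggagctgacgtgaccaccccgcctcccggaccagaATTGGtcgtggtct
Slc25a23 (fell): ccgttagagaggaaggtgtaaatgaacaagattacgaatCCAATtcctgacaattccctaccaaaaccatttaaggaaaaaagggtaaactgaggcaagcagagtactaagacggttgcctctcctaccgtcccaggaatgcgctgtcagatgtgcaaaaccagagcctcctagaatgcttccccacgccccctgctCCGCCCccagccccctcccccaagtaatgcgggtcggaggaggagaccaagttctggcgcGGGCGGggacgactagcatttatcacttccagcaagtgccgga
Slc29a3 (fell): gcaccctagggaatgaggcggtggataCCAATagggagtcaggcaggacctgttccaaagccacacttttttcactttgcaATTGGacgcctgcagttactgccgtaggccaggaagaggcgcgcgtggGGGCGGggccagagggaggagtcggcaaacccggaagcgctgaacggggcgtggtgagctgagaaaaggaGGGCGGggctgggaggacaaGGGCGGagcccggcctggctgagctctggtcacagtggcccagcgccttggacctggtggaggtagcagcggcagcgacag
Slc5a3 (rose): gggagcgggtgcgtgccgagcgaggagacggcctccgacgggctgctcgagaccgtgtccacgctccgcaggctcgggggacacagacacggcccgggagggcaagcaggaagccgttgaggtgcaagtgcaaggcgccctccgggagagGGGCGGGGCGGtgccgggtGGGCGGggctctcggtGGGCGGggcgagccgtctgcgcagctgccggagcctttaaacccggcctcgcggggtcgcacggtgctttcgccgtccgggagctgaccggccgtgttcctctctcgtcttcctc
All 4 held GC boxes, with 4 matches in Slc25a1, 2 in Slc25a23, 3 in Slc29a3 and 4 in Slc5a3, of which 2 share a base. CCAAT boxes matched in the 3 genes that fell (2, 1 and 2 times) and 0 times in Slc5a3, and an E-box matched once, in Slc25a1. None held a TATA box (TATAAA) or a sterol element (TCACNCCAC). Over all 32851 promoters of this length, 35.7% held a GC box, 37.4% a CCAAT box, 13.6% a TATA box, 7.15% an E-box and 1.24% the sterol element. Among listed members with a promoter, a GC box matched in 11 of 15 lower and 13 of 16 higher genes. A CCAAT box matched in 6 of 15 and 8 of 16, so neither motif divided the directions. Here a gene counted if any of its promoters matched, so these counts are not read against the shares per promoter. The GC content of these promoters was 69.3% for Slc25a1, 54.0% for Slc25a23, 64.3% for Slc29a3 and 73.3% for Slc5a3, against a median of 52.7%.

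Among mitochondrial carriers with an Slc25 symbol, the called genes fell while the rest of the listed ones were higher. Slc25a1 (chromosome 16: 17925223 to 17928219, minus strand), the citrate carrier that sends citrate from mitochondria to the cytosol for lipid synthesis, had the smallest p of all members. Its CaKO libraries held 252, 193, 189.9 and 242 normalised counts in replicates 1 to 4, a mean of 219 ± 32.3 (SD, n = 4). Replicates 1 and 4 were high and 2 and 3 low, and all 4 lay below the implied control level of 352. The authors' deposited table gives a log2 ratio of -0.68, or 62.2% of control (BH-adjusted p = 0.000318). That is more than the spread from the lowest to the highest CaKO library, 0.41 on the log2 scale.

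Slc25a23 (chromosome 17: 57043711 to 57059863, minus strand), a calcium-regulated exchanger of ATP-magnesium and phosphate, was the most abundant called member. It held 4129.8, 3954, 3221 and 4665 normalised counts in CaKO replicates 1 to 4 (mean 3992 ± 597, SD, n = 4). Replicate 3 was lowest and replicate 4 highest, and all 4 were under the implied control level of 5301. In the authors' deposited table it fell to 75.3% of control (log2 ratio -0.41, BH-adjusted p = 0.0191), which is less than the 0.53 range of its CaKO libraries.

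The other listed mitochondrial carriers with an Slc25 symbol were higher without passing the adjustment. Ucp2, a mitochondrial carrier with another symbol, was lower (log2 ratio -0.35 in the authors' deposited table, BH-adjusted p = 0.300). Slc25a3, the phosphate carrier that feeds ATP synthesis, and Slc25a5, an ADP/ATP exchanger, had the highest levels per length of all members, at 1162 and 1361 normalised counts per kb of exon. Slc25a3 measured 6225, 6568, 7134 and 5867 normalised counts, and Slc25a5 2015, 2307, 2369 and 2267, in CaKO replicates 1 to 4. Their log2 ratios in the authors' deposited table were 0.16 (BH-adjusted p = 0.313) and 0.22 (BH-adjusted p = 0.133). A near-identical copy of Slc25a5, Gm5560, could share its reads. Slc25a14 and Slc25a30, related carriers of the uncoupling-protein branch, had log2 ratios of 0.34 (BH-adjusted p = 0.0856) and 0.46 (BH-adjusted p = 0.156) in the authors' deposited table. Slc25a14 was high in replicate 3 (983 normalised counts, against 691, 760.5 and 794 in replicates 1, 2 and 4), and Slc25a30 was low in replicate 4 (116, against 162, 174 and 176 in replicates 1 to 3).

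The coenzyme A carrier Slc25a42, the glutathione carrier Slc25a39 and the NAD carrier Slc25a51 completed the group. Their log2 ratios in the authors' deposited table were 0.33, 0.25 and 0.17, with adjusted p from 0.140 to 0.207. Slc25a51 was the steadiest member, between 1697 and 1819 normalised counts in the 4 CaKO libraries (coefficient of variation 3.06%, against a median of 11.4% over the listed members).

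Both listed genes of the equilibrative nucleoside family were lower, and 1 of them fell. Slc29a3 (chromosome 10: 60712072 to 60752794, minus strand), an equilibrative nucleoside transporter of lysosomes, held 190.0, 169, 172 and 245 normalised counts in CaKO replicates 1 to 4 (mean 194 ± 35.1, SD, n = 4). Replicate 4 was high and the other three were close to each other, all below the implied control level of 280.5. The authors' deposited table lists a fall to 69.2% of control (log2 ratio -0.53, BH-adjusted p = 0.0242). Slc29a4, a plasma membrane carrier of monoamines in the same family of 4 genes, was weakly expressed at 74.4, 65.1, 68.6 and 74.0 normalised counts. In the authors' deposited table it was lower by a similar amount without passing (log2 ratio -0.51, BH-adjusted p = 0.107).

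The listed genes of family 35, the nucleotide-sugar family, were split. Slc35c1, which supplies GDP-fucose, was at 151, 182, 138 and 189.7 normalised counts in CaKO replicates 1 to 4, and its log2 ratio in the authors' deposited table was -0.40 (BH-adjusted p = 0.305). Slc35b4, which carries UDP-xylose and UDP-N-acetylglucosamine, ranged from 1153 to 1368. Slc35f4, placed here by its family number alone, ranged from 222 to 271. Both were higher, at 0.26 (BH-adjusted p = 0.0751) and 0.34 (BH-adjusted p = 0.145) (log2) in the authors' deposited table.

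A sugar-family gene that rose is the sodium-coupled carrier of myo-inositol, an osmolyte and lipid precursor. Slc5a3 (chromosome 16: 92058322 to 92087473, plus strand) held 719.6, 804, 869 and 813 normalised counts in CaKO replicates 1 to 4, a mean of 801 ± 61.6 (SD, n = 4). Every library was above the implied control level of 626, with replicate 1 lowest. The log2 ratio in the authors' deposited table was 0.36, or 1.28-fold (BH-adjusted p = 0.0111), larger than the 0.27 range of the CaKO libraries. The neighbouring gene Mrps6 overlaps 1.46% of its exons. Slc5a6, the biotin and pantothenate carrier of that family, was higher by 0.28 in the authors' deposited table (BH-adjusted p = 0.270), and its near-identical copy Gm6157 could share reads.

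Slc2a1, the glucose carrier of the blood-brain barrier, was lower. It measured 2469, 2075, 1769 and 1988 normalised counts in CaKO replicates 1 to 4 (mean 2075 ± 293, SD, n = 4), with replicate 1 high and replicate 3 low. Its log2 ratio in the authors' deposited table was -0.30 (BH-adjusted p = 0.213).

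Amino acid carriers of the cell membrane held 1 gene that rose, and their listed lower genes included a heavy chain and 2 light chains. Of the 16 genes of family 7, 4 were listed, 2 higher and 2 lower. Slc7a3 (chromosome X: 101079210 to 101086020, minus strand), a carrier of arginine and other cationic amino acids, held 200.01, 187, 249 and 196 normalised counts in CaKO replicates 1 to 4 (mean 208 ± 27.6, SD, n = 4). Replicate 3 stood above the other three, and all 4 exceeded the implied control level of 146. It rose 1.42-fold in the authors' deposited table (log2 ratio 0.51, BH-adjusted p = 0.0357). Slc7a14, another member of family 7, and Slc38a10 were higher by 0.26 (BH-adjusted p = 0.186) and 0.29 (BH-adjusted p = 0.0667) in the authors' deposited table, with CaKO ranges of 1899.7 to 2199.8 and 819 to 923 normalised counts. Gm11769, on the opposite strand, overlaps 5.72% of the exons of Slc38a10.

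Slc3a2 encodes the heavy chain that brings amino acid exchangers to the cell surface, and Slc7a8 and Slc7a10 encode light chains that pair with it, the first for large neutral amino acids and the second for small ones such as D-serine and glycine. In CaKO replicates 1 to 4 Slc3a2 measured 1027, 966, 844 and 1358 normalised counts. Slc7a8 measured 932, 741, 709 and 963, and Slc7a10 220.1, 196, 194 and 265. In all 3 genes replicate 3 was lowest and replicate 4 highest, an order also seen in Slc25a23, Slc38a3, Slc44a2, Slc48a1 and Slc35c1. Their log2 ratios in the authors' deposited table were -0.32, -0.34 and -0.32 (BH-adjusted p = 0.240, 0.231 and 0.240). For Slc3a2, 3 of 4 CaKO libraries were below the implied control level, and it was the single listed Slc gene without all 4 on the side of its fold change.

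Slc38a3, the glutamine carrier through which astrocytes release glutamine, came closest to the threshold among the lower genes that missed it. It held 661, 854, 639 and 856 normalised counts in CaKO replicates 1 to 4 (mean 752 ± 118, SD, n = 4). Replicates 1 and 3 were low and 2 and 4 high, with all 4 below the implied control level of 957. The authors' deposited table gives 78.7% of control (log2 ratio -0.35, BH-adjusted p = 0.0862).

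Inorganic ion carriers gave no call. Slc4a10, a sodium-dependent bicarbonate transporter of neurons, measured 6655, 6702, 6515 and 5511 normalised counts in CaKO replicates 1 to 4. Replicate 4 lay apart from the others and near the implied control level of 5481. Its log2 ratio in the authors' deposited table was 0.21 (BH-adjusted p = 0.246). The magnesium carrier Slc41a1, between 663 and 863 normalised counts, was lower (log2 ratio -0.26 in the authors' deposited table, BH-adjusted p = 0.174). Slc24a5, a potassium-dependent sodium-calcium exchanger best known from pigment cells, was the most variable member, with 54.3, 33.1, 21.9 and 26.1 normalised counts. It had a log2 ratio of -0.71 in the authors' deposited table (BH-adjusted p = 0.245), and Myef2 covers 39.5% of its exon sequence on the opposite strand.

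Zinc carriers of family 39 differed in direction. Slc39a11 and Slc39a9 were higher and Slc39a12 lower, with log2 ratios of 0.39, 0.19 and -0.27 in the authors' deposited table (BH-adjusted p = 0.180, 0.244 and 0.313). Slc39a12 ranged from 674 to 843 normalised counts in CaKO, Slc39a9 from 837 to 976 and Slc39a11 from 147 to 212. With a p of 0.0492 in the authors' deposited table, Slc39a12 was the member just inside the limit of the table.

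Of the carriers of vitamins, lipids and organic ions, 4 were lower and 1 higher. The pair of thiamine carriers pointed opposite ways: Slc19a3 was lower and Slc19a2 higher, at -0.49 (BH-adjusted p = 0.171) and 0.35 (BH-adjusted p = 0.177) (log2) in the authors' deposited table. Slc19a3 measured 135, 89.2, 72.6 and 100.0 normalised counts in CaKO replicates 1 to 4 and Slc19a2 347, 297, 344 and 331. Slc44a2, a choline-like carrier, Slc22a8, an organic anion carrier of brain vessels and choroid plexus, and the haem carrier Slc48a1 had log2 ratios of -0.37, -0.33 and -0.21 in the authors' deposited table (BH-adjusted p = 0.106, 0.211 and 0.275). Slc22a8 was the member matched by overlap and not by identical coordinates. Slc10a3, outside the adjustment, was at 38.1 to 44.7 normalised counts, with a log2 ratio of 0.84 in the authors' deposited table.

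**Figure D2:**
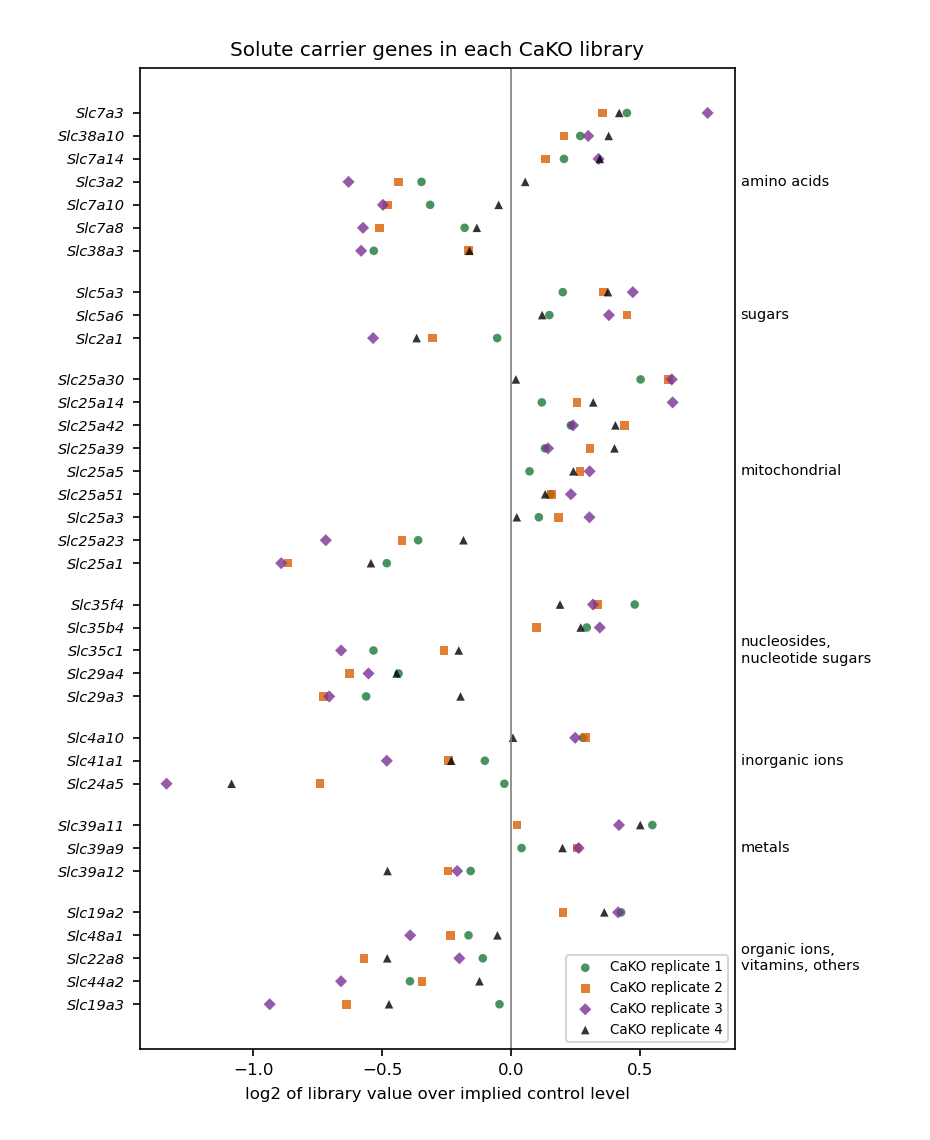
Each of the 35 listed solute carrier genes in each CaKO library, as the log2 of the library's normalised count over the control level implied by the deposited fold change (0 marks that level), grouped by substrate class. All 4 libraries lie on 1 side of 0 in 34 genes (97.1%, against 94.5% of all listed genes), and replicate 3 (diamonds) is the lowest library for 13 of the 17 lower genes.

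CaKO replicate 3 was often the extreme library in the direction of the change. Among the 17 lower Slc genes CaKO replicate 3 was the lowest library in 13 and the highest in 0, and replicates 1 and 4 were highest in 8 and 9. Among the 18 higher Slc genes replicate 3 was highest in 9 and lowest in 0. The same order held over all listed genes, where replicate 3 was the lowest library for 60.0% of the lower and the highest for 49.2% of the higher ones. All 4 libraries lay on the side of the fold change in 34 of the 35 (97.1%) and in 94.5% of all listed genes. The control level in this count is derived from the CaKO mean, and the table holds only genes under the p limit, so nothing is read from it. In 11 of the 35 (31.4%) the deposited fold change exceeded the whole CaKO range on the log2 scale, against 38.9% of all listed genes.

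Leaving out each CaKO library by an approximation showed how far the 5 calls rest on it. Slc25a1 kept its call in each case, with log2 ratios from -0.76 to -0.62. Without replicate 3 the calls of Slc5a3 (0.31), Slc25a23 (-0.32), Slc29a3 (-0.48) and Slc7a3 (0.41) ended, and without replicate 2 that of Slc29a3 ended too (-0.47). For Slc5a3 the approximated p without replicate 3 (0.00171) was just over the limit for a kept call (0.00162). For Slc29a3, Slc25a23 and Slc7a3 the approximated p without replicate 3 was 0.0036, 0.0095 and 0.0131. Without replicate 1 or 4 all 5 calls were kept. For Slc7a3 the lower precision of 3 libraries alone, with the fold change kept, was enough to end the call. Over the 35 listed genes, 32, 25, 18 and 30 kept a p below 0.05 without replicates 1, 2, 3 and 4. These counts can only drop, since the genes were listed for a p under that limit. Of the 35, 0 reversed direction. In 34 of them a reversal was not possible, because all 4 libraries lay on the side of the fold change, so nothing is read from it.

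**Figure D3:**
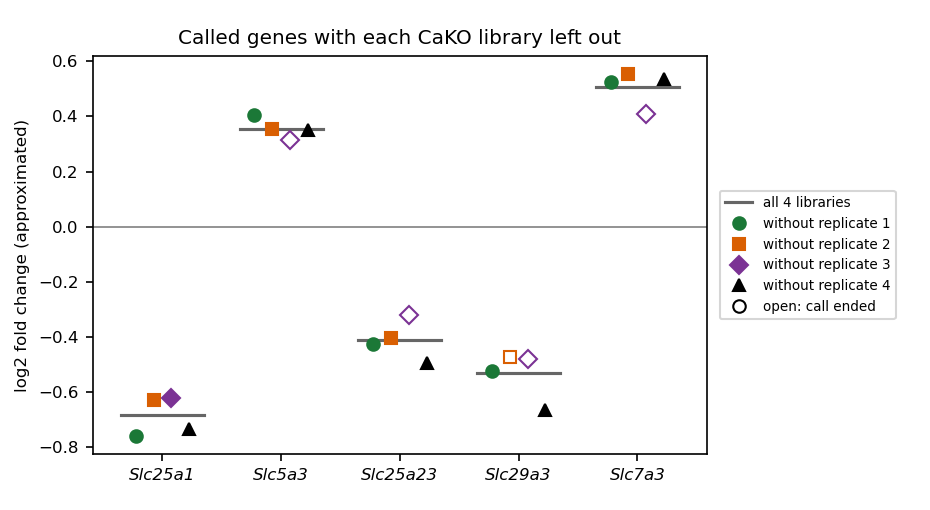
Approximated log2 ratio of the 5 called solute carrier genes with each CaKO library left out (symbols), beside the value with all 4 libraries (grey line). Open symbols mark a call that ended: 4 of the 5 genes lose it without replicate 3, Slc5a3 narrowly, and Slc25a1 keeps it throughout.

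The listed members also differed in level and in sequence composition. Per length, levels ran from 14.5 normalised counts per kb for Slc24a5 to 1361 for Slc25a5. The next highest after Slc25a5 and Slc25a3 were Slc4a10 at 988, Slc25a23 at 754, Slc48a1 at 643 and Slc2a1 at 592 per kb. The 3 genes at the top were all higher in CaKO and the next 3 all lower. The median GC content of the longest transcript was 54.0% for the lower and 47.9% for the higher Slc genes, beside 52.2% and 49.1% for all listed genes. Median exon length was 3478 and 5530 bases for lower and higher Slc genes, against 3853 and 3903 for all listed genes. These are descriptions, and the part of composition or length in the fold changes was not tested.

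**Figure D4:**
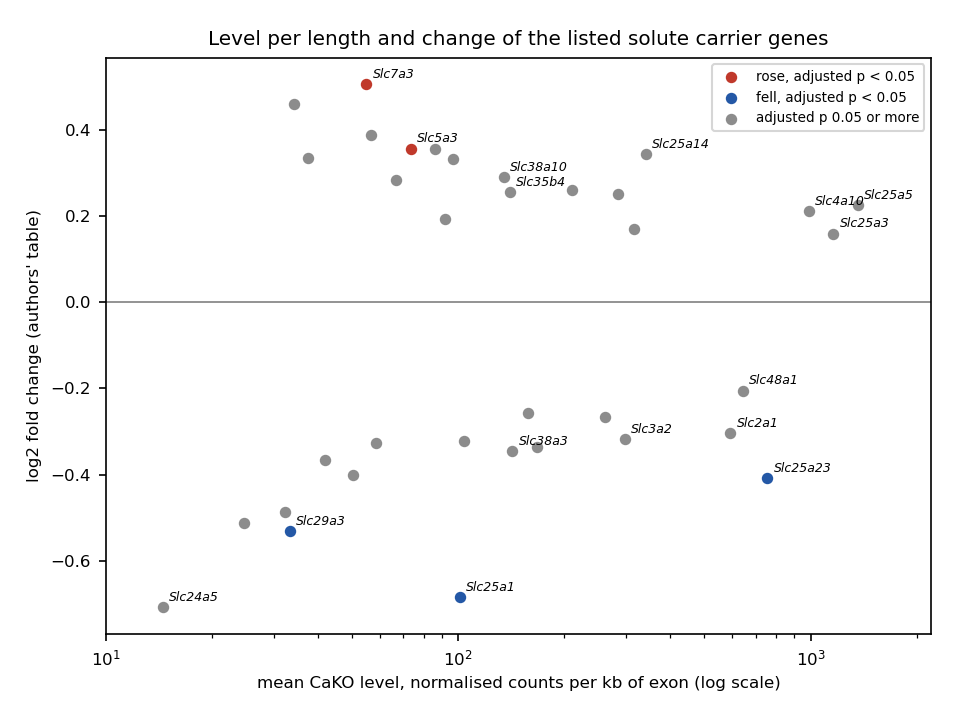
Mean CaKO level per kb of exon (horizontal axis, log scale) against the log2 ratio in the authors' deposited table (vertical axis) for the 35 listed solute carrier genes, with the called genes in colour. The 3 genes of highest level (Slc25a5, Slc25a3 and Slc4a10) have log2 ratios of 0.16 to 0.22, and Slc25a1, at 101 per kb, lies lowest among the called genes.

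The listed markers of astrocytes, oligodendrocytes and vessels were lower, while those of microglia and meninges, 1 each, were higher. Over all genes 15.8% were listed and 3.24% called. Of 10 astrocyte markers 5 were listed, all lower (median log2 ratio -0.34 in the authors' deposited table, 2 of them called), and none was at 0 in a CaKO library. Their summed level ran from 26364 to 30657 normalised counts over the CaKO libraries. Slc38a3, Slc7a10 and Slc39a12, members known from astrocytes and singled out after their values were seen, were at -0.35, -0.32 and -0.27 in the authors' deposited table. The astrocyte carriers Slc1a2, Slc1a3, Slc6a11 and Slc4a4 had no value. Of 6 endothelial markers 3 were listed, all lower (Flt1, Ly6c1 and Slc2a1 itself, at -0.19, -0.39 and -0.30 in the authors' deposited table), with 1 called and a summed level of 3475 to 4213 normalised counts. Oligodendrocyte markers gave 7 of 8 listed, all lower and 4 of them called (median -0.50 in the authors' deposited table, summed level 34757 to 42320 normalised counts). Of 6 precursor markers 3 were listed, all lower and all called (summed level 2118 to 3058 normalised counts). Microglia markers gave 1 of 5 listed, Trem2, higher and not called (log2 ratio 0.32 in the authors' deposited table, BH-adjusted p = 0.302). Meningeal markers gave 1 of 6 listed, Ogn, which rose (log2 ratio 0.78 in the authors' deposited table, BH-adjusted p = 0.00877). The summed levels of the controls were not analysed here, and the part of these cells in the Slc values was not tested.

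Transport genes whose symbol is not Slc followed by a number were counted in the same way and not compared with the Slc genes. They are set apart by symbol alone, not by sequence relatedness. The shares over all genes were 15.8% listed and 3.24% called. All 4 listed ABC transporters of 50 were higher with no call, while Abca4, outside the adjustment, was lower (log2 ratio -0.62 in the authors' deposited table). Of 26 vacuolar proton pump subunits, which acidify vesicles and lysosomes, 2 were higher and 2 lower, again with no call. Both listed sodium-potassium pump subunits of 15 were lower, and Atp1b2, the astrocyte subunit, fell by 0.49 (log2) in the authors' deposited table (BH-adjusted p = 0.00476). The single listed gene of 14 Slco carriers (Slco2b1) was lower, that of 7 chloride channels (Clcn7) higher, and the 11 aquaporins gave none. Slco2a1, outside the adjustment, was higher (log2 ratio 0.67 in the authors' deposited table). Of 13 carriers with other symbols 3 were listed: the synaptic vesicle protein Sv2b was higher and the mitochondrial carrier Ucp2 lower, at 0.19 and -0.35 in the authors' deposited table, neither called. The third, Mfsd2a, the lipid carrier of brain endothelium, fell to a log2 ratio of -0.45 in the authors' deposited table (BH-adjusted p = 0.0178), with 383 ± 28 normalised counts (SD, n = 4) in CaKO.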

How the data were processed

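Poly-A RNA of mPFC from 4 CaKO and 4 control mice was sequenced as paired-end reads, per the labels' protocols. The submitters' processing notes name the build GRCm38 and the tools TopHat2 2.0.12 (alignment), HTSeq 0.6.1 (gene counts) and DESeq2 1.30.1. Strand use in counting is not given in the sources used here, so reads of genes that overlap on opposite strands cannot be told apart.

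The deposited library values form a signal: whole read counts that the authors divided by 1 factor per library (100.0% whole multiples of 1 step, tolerance 0.01). They are not per length, although the table is named for FPKM. The deposited log2 fold changes, p-values and adjusted p-values are the authors'. A positive value means higher in CaKO, because the 18 genes at 0 in each CaKO library are all negative. The adjusted p-values follow Benjamini-Hochberg over 12938 genes (largest relative difference 0.005), and 325 rows listed at 1 were treated as outside it. Calls are at an adjusted p below 0.05 ("rose", "fell"), and "listed" genes are all 2047 rows inside the adjustment (unadjusted p below 0.05). No test was run on control values.

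Of 2372 rows, 2266 matched GENCODE M21 exactly, 89 by 80% mutual overlap and 17 not at all. Near-identical copies were found with BLAST 2.17.0 (98% identity, 200 bp or more, 50% of 1 of the transcripts). A CaKO library was left out by recomputing the mean of the other 3 against the implied control level and widening the standard error implied by the p. A call counted as kept up to a p of 0.00162, the largest among called genes, so the counts of calls can only drop. Only the arithmetic of this step was checked on simulated data, with the spread between libraries known and held fixed; how it compares with a refit that estimates the spread anew was not tested. The rule for named genes was every called member, the 2 smallest p of each substrate class, Slc38a3 and 20 well-known transporters; the remaining members are given since they complete the set. Substrate classes follow family numbers. The members and lists were chosen with earlier results of these data known.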

Additional observations from a re-analysis of the deposited data

Results flagged for a closer look

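Slc4a10 had 1 CaKO library far from the others: replicate 4 was at 5511 normalised counts while replicates 1 to 3 were between 6515 and 6702, and the gap made up 0.843 of the whole range. Without that library the approximated log2 ratio to control came to 0.27, against 0.21 in the authors' deposited table. The 36 members were each examined in this way, and chance alone sets apart about 1 in 20 such groups.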

How the results depend on the processing

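The counts of called Slc genes, 3 that fell and 2 that rose, depend on the threshold and on the libraries used. At an adjusted p below 0.1 they were 4 and 5, and at 0.01 they were 1 and 0. Exact matches alone, or leaving out genes that overlap another by 20% or more, kept 3 and 2. With each CaKO library left out, the calls that fell ranged from 1 to 3 and those that rose from 0 to 2, both lowest without replicate 3 (without replicate 2, the calls that fell were 2). These counts can only drop by construction. Among the listed genes that were not called, 1, 2, 0 and 2 came under the same p limit without replicates 1, 2, 3 and 4. The precision of 3 libraries with the fold changes kept, an alternative added after seeing the data, gave 3 and 1, by construction through the wider standard error. Listed lower genes (17) ranged from 6 to 16 and listed higher genes (18) from 12 to 16 with a library left out, and came to 14 and 16 by the lower precision alone, both also added after seeing the data. Only listed genes entered these counts, so they too can only drop. Counting the gene outside the adjustment made the higher genes 19. The median of the listed genes ranged from 0.11 to 0.18 with a library left out. No paired analysis was possible because the table used here holds library values for CaKO only. A count test and another normalisation of the comparison could not be run for the same reason.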

Other observations

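The X chromosome holds 4 of the 36 Slc genes in the table (Slc7a3, Slc25a5, Slc25a14 and, outside the adjustment, Slc10a3), and all 4 were higher in CaKO in the authors' deposited table. Over all listed genes on that chromosome 41 were higher and 36 lower. The observation was made after the values were seen and was not tested.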
